A study of Equus caballus with 32 samples.

Results

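The genes described here mark natural killer (NK) cells and cytotoxic T cells, the lymphocytes that kill infected or altered cells on contact. They were KLRB1, CRTAM, GZMA, GZMB, PRF1, NKG7, KLRD1, EOMES, TBX21 and GNLY, and a probe belonged to them when the array's own annotation gave it one of these names. Of the 10 genes, 9 had such a probe. These 9 genes held 18 of the 43987 probes on the array, and all 18 were among the 26368 probes tested. No probe was named GNLY. A probe named NKL matched the RefSeq gene GNLY by its accession, and its values are given beside the others without being counted among them.

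Venous blood of 32 Welsh Pony mares was sampled 30 days after their foals were weaned, with 1 array per mare. The mares had undergone a progressive weaning (16 mares) or a brutal weaning (16 mares), and the labels describe neither procedure further. All were adult females of the same breed, and their RNA came from whole blood stabilised at collection. The 32 arrays lay on 4 slides, each with 4 progressive and 4 brutal mares. Levels are log2 signals divided by the 75th percentile of their own array, which therefore sits at 0, and every difference is progressive minus brutal.

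Killing by these lymphocytes runs through granules. Perforin, encoded by PRF1, opens the membrane of the target cell, and granzymes, which are serine proteases such as those encoded by GZMA and GZMB, enter and trigger its death. Surface receptors of the lectin family, among them the products of KLRB1 (CD161) and KLRD1 (CD94), help to set whether an NK cell attacks. The transcription factors T-bet (TBX21) and eomesodermin (EOMES) direct the cytotoxic programme in NK and CD8 T cells. In whole blood these transcripts are diluted by those of neutrophils, red cells and other leukocytes, and a smaller number of cells and less RNA per cell cannot be told apart.

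The brighter GZMB probe is nearly the same as one for another gene, so both are shown. The other belongs to LOC100033969, annotated as mast cell protease-1-like, whose listed accessions also include the GZMB transcript. Each is 60 bases long, is read 5′ to 3′ in the sense of the transcript, and lies on an unplaced sequence of the EquCab1 build, at chrUn:337935128-337935187 for GZMB and chrUn:179917735-179917794 for LOC100033969, both on the plus strand. Capitals mark the bases that differ.
GZMB: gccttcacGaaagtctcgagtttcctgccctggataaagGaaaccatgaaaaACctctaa
LOC100033969: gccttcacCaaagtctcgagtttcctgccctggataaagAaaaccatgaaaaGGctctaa
The probes are identical at 56 of 60 bases, and the 4 substitutions from the GZMB probe to the other are G9C, G40A, A53G and C54G, counted from 1 at the 5′ end. In the RefSeq gene table, built on a later assembly, no protein-coding gene stands between LOC100033969 and GZMB. Cross-hybridisation between their targets was not tested.

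TBX21 was measured by 5 probes that are 1 base apart along the same stretch of chromosome 11 of EquCab1, from chr11:22708625-22708684 to chr11:22708629-22708688 on the plus strand. They are shown because they share a core of 56 bases and are therefore not separate measurements of the gene. Capitals mark the bases outside that core.
TBX21 probe 1: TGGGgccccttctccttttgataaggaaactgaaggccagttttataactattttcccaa
TBX21 probe 2: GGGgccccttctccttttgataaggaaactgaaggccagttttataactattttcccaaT
TBX21 probe 3: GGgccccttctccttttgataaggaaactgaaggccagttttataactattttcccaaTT
TBX21 probe 4: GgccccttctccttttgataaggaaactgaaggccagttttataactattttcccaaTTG
TBX21 probe 5: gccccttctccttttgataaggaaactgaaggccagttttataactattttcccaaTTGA
KLRB1, the gene with the smallest p among the members, had a single probe at chr6:36754067-36754126 of EquCab1 on the minus strand, shown in the sense of the transcript with no base marked.
KLRB1: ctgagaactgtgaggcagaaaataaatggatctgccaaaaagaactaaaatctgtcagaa
The chromosome of the probe in the array annotation was that of the gene in RefSeq for 7 of the 9 genes. The probes of the other 2, GZMB and NKG7, lie on unplaced sequence.

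Array brightness, taken as the 75th percentile, lay between 339.5 and 646 units of intensity, and the share of spots well above background between 53.0 and 66.0%. All 18 member probes stood above it on all 32 arrays, except the dimmer CRTAM probe, which did on 31. Of the marker lists for other blood cells, 12 of 13 T cell genes, 8 of 8 B cell genes, 10 of 11 neutrophil genes and 6 of 6 monocyte genes with a tested probe were above background on every array, as were 4 of 5 erythroid genes and 3 of 4 platelet genes.

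The comparison of progressive with brutal weaning asks whether the kind of weaning is reflected in the blood transcripts of the mares 30 days later. None of the 9 cytotoxic genes passed an adjusted p of 0.05 in limma, with 0% of all 26368 probes and 0% of 9686 genes called. At an unadjusted p under 0.05 only KLRB1 was found among the 9, and it was lower, against 2.57% of all genes (1.87% in that direction) and 2.75% of all probes. Among the 9 genes, 5 were lower and 4 higher after progressive weaning, with a median difference of -0.09. Over all 9686 genes 58.4% were lower and the median difference was -0.02, so the members' direction lay near the background. The adjusted p of every member probe was at least 0.996, and in every gene the values of the groups overlapped.

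**Figure D1:**
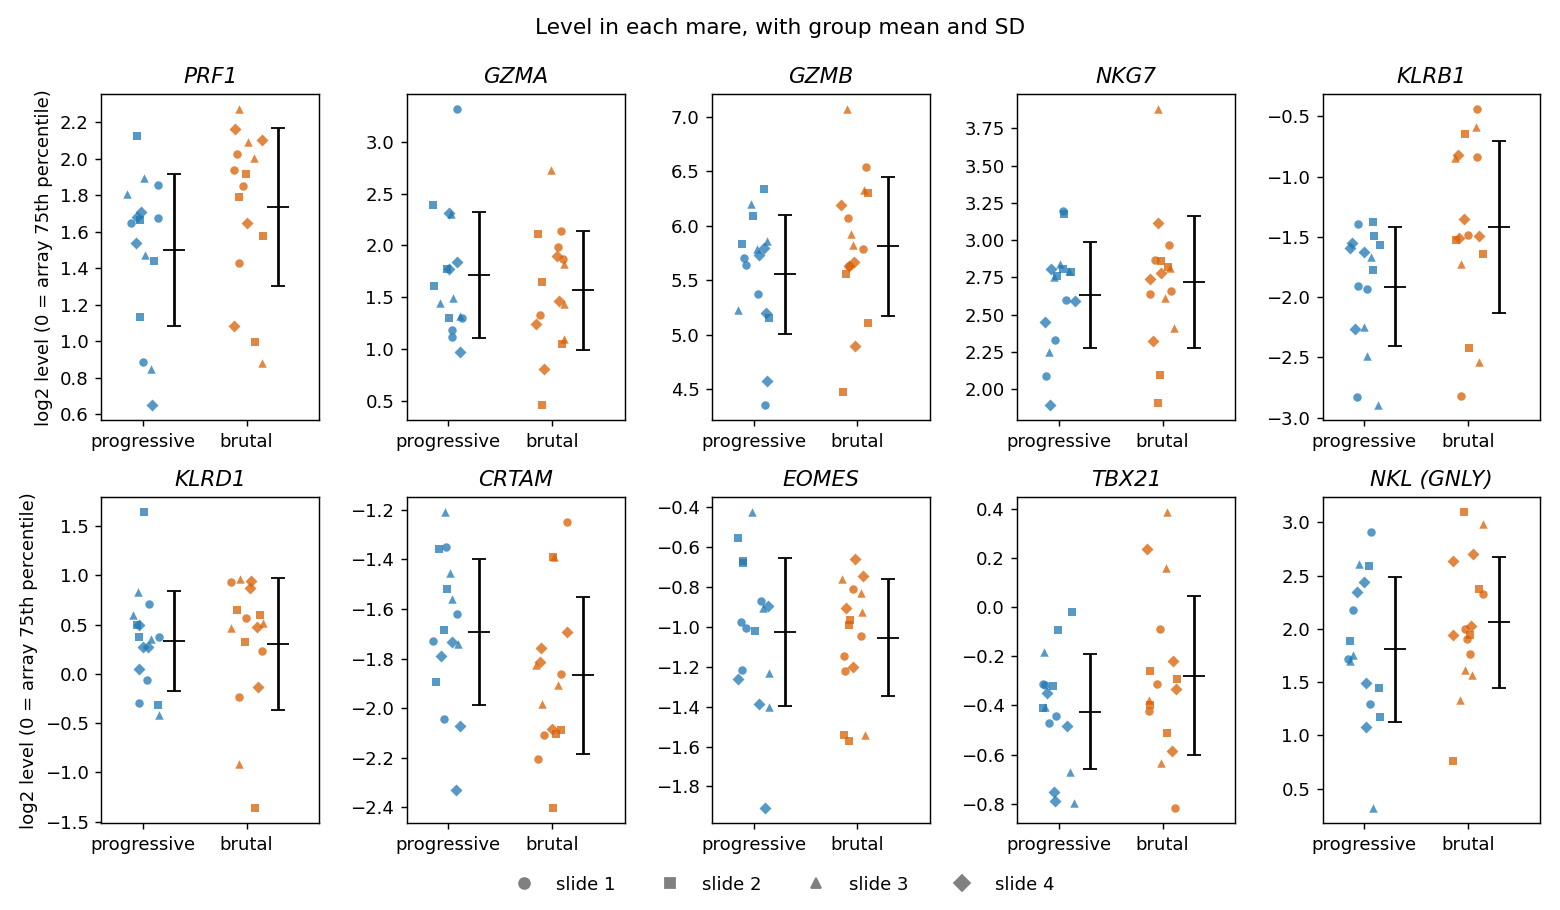
Level of each gene in the 32 mares (y axis, log2 level relative to the array's 75th percentile), with progressive mares on the left and brutal mares on the right of each panel. Points are mares, their shape is the slide, and bars are the group mean and SD (n = 16 each). The groups overlap in every panel, and the KLRB1 panel has 7 brutal mares above the highest progressive mare.

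Among the granule proteins, PRF1 and GZMB were lower on average after progressive weaning and GZMA was higher, none beyond the spread between mares. PRF1 ran from 0.65 through a median of 1.65 to 2.12 in progressive mares, against 0.88, 1.88 and 2.27 in brutal mares. The median of the brutal mares lay above 14 of the 16 progressive mares, yet the lowest values of both groups were close to each other. PRF1 averaged 1.50 ± 0.41 in progressive and 1.74 ± 0.43 in brutal mares (SD, n = 16 each), a difference of -0.23 (SE 0.15, limma unadjusted p = 0.117). Its difference was negative on slides 1, 3 and 4 (-0.29, -0.31 and -0.36) and 0.02 on slide 2.

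GZMB ran from 4.35 through 5.72 to 6.34 in progressive mares, against 4.48, 5.80 and 7.07 in brutal mares. The ranges nearly coincide except at the top, where 2 brutal mares lay above the highest progressive mare, brutal 12 being the highest. The means were 5.55 ± 0.55 in progressive and 5.81 ± 0.64 in brutal mares (SD, n = 16 each), a difference of -0.26 (SE 0.20, limma unadjusted p = 0.212). A second GZMB probe, which does not overlap the first, differed by -0.24 (SE 0.22) and correlated with it at r = 0.902 over the 32 mares. The LOC100033969 probe shown above differed by -0.31 (SE 0.18, unadjusted p = 0.0990), with 6.52 ± 0.50 in progressive and 6.83 ± 0.58 in brutal mares (SD, n = 16 each). Its levels followed those of the GZMB probe at r = 0.963, so these 2 probes do not give independent values for the family.

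**Figure D2:**
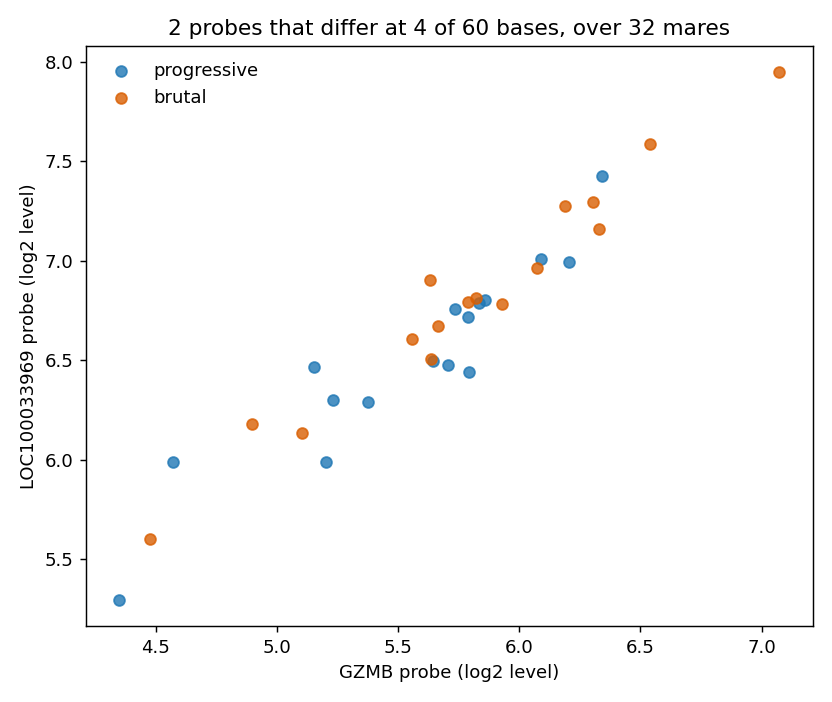
Log2 level of the GZMB probe (x axis) against the LOC100033969 probe (y axis) in each of the 32 mares, coloured by weaning, both relative to the array's 75th percentile. The points lie along a line (r = 0.963 on values centred within group and slide), with brutal 12 at the upper end and progressive 1 at the lower end.

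GZMA, a granzyme with trypsin-like specificity, ran from 0.98 through 1.55 to 3.31 in progressive mares, against 0.46, 1.56 and 2.73 in brutal mares. The group medians were nearly equal, and the highest value of all belonged to progressive 2. The means were 1.72 ± 0.61 in progressive and 1.57 ± 0.57 in brutal mares (SD, n = 16 each), a difference of 0.15 (SE 0.20, limma unadjusted p = 0.467). It was 0.07 without brutal 5 and 0.23 without brutal 12. NKG7, a granule membrane protein of cytotoxic lymphocytes, had a median of 2.76 in progressive (1.89 to 3.20) and 2.76 in brutal mares (1.90 to 3.88). Its difference of -0.09 (SE 0.14) was smaller than the spread within either group. It was -0.14 without brutal 5 and -0.0076 without brutal 12. The NKL probe, for the granule peptide granulysin, averaged 1.81 ± 0.68 in progressive and 2.06 ± 0.61 in brutal mares (SD, n = 16 each), a difference of -0.25 (SE 0.22, limma unadjusted p = 0.261).

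Among the receptors, KLRB1 had the largest difference and the smallest p of the members. KLRB1 ran from -2.90 through -1.72 to -1.38 in progressive mares, against -2.82, -1.49 and -0.44 in brutal mares. Brutal mares reached higher: 7 of 16 lay above the highest progressive mare, while the lowest brutal mare was as low as the lowest progressive ones. The means were -1.91 ± 0.49 in progressive and -1.42 ± 0.72 in brutal mares (SD, n = 16 each), a difference of -0.50 (SE 0.21, 95% interval -0.92 to -0.07) or a ratio of 0.709. The unadjusted p was 0.0236 and the limma adjusted p 0.996, so the difference did not pass the threshold. By slide it was -0.62, 0.01, -0.90 and -0.47 on slides 1 to 4. Without slide 3 it was -0.36 with an unadjusted p of 0.119, and without slide 4 it was -0.51 with an unadjusted p of 0.0694.

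KLRD1, whose product CD94 pairs with NKG2 receptors, ran from -0.42 through 0.36 to 1.64 in progressive mares, against -1.37, 0.50 and 0.97 in brutal mares. The 2 lowest values belonged to brutal 5 and brutal 12. The difference was 0.03 (SE 0.20, limma unadjusted p = 0.882), and it was -0.08 without brutal 5 and -0.05 without brutal 12, so its direction rests on single arrays. A second KLRD1 probe gave 0.06 (SE 0.20) and followed the first at r = 0.973. CRTAM, a surface molecule of activated NK and CD8 T cells, ran from -2.33 through -1.71 to -1.21 in progressive mares, against -2.40, -1.89 and -1.25 in brutal mares. Only 4 of 16 progressive mares lay below the brutal median. CRTAM averaged -1.69 ± 0.29 in progressive and -1.87 ± 0.32 in brutal mares (SD, n = 16 each), a difference of 0.17 (SE 0.11, limma unadjusted p = 0.113). By slide the CRTAM difference was 0.17, 0.38, 0.29 and -0.14 on slides 1 to 4. Without slide 4 it was 0.28 with a limma unadjusted p of 0.0313. Without slide 2 it was 0.10 (limma unadjusted p = 0.397), and without slide 3 it was 0.14 (limma unadjusted p = 0.290). Its dimmer probe gave 0.21 (SE 0.14), and the 2 probes correlated at r = 0.668.

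Of the transcription factors, TBX21 ran from -0.80 through -0.41 to -0.02 in progressive mares, against -0.82, -0.32 and 0.39 in brutal mares. The highest progressive mare stood below the 3 highest brutal mares, and the low ends coincided. TBX21 averaged -0.43 ± 0.23 in progressive and -0.28 ± 0.32 in brutal mares (SD, n = 16 each), a difference of -0.15 (SE 0.10, limma unadjusted p = 0.148). Its 5 overlapping probes gave differences from -0.16 to -0.12 and correlated with one another at r from 0.797 to 0.953. EOMES averaged -1.02 ± 0.37 in progressive and -1.05 ± 0.30 in brutal mares (SD, n = 16 each). Its difference of 0.03 (SE 0.12, limma unadjusted p = 0.809) was far smaller than the SD within a group, and its other 2 probes gave 0.05 and 0.01. Leaving out 1 array gave -0.0061 without brutal 5, 0.05 without brutal 12 and 0.04 without progressive 16.

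**Figure D3:**
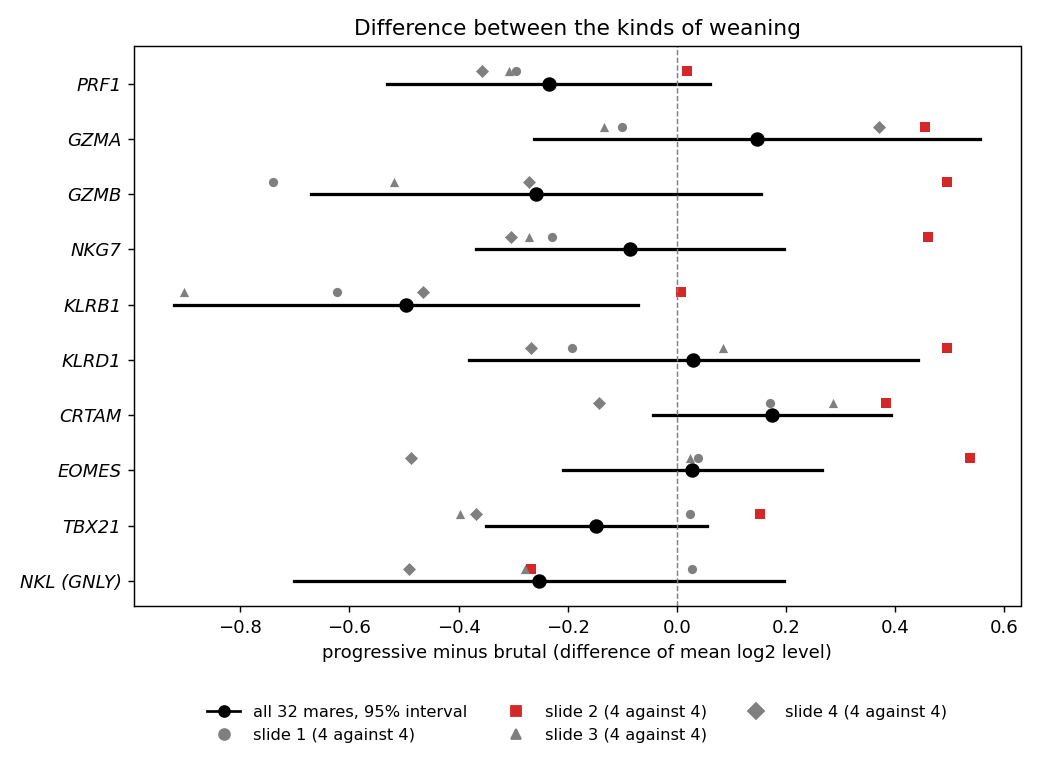
Difference of the mean log2 level, progressive minus brutal (x axis), for each gene (y axis). Black points are over all 32 mares with 95% intervals, and small markers are the 4 slides alone, slide 2 in red. The interval excludes 0 only for KLRB1 (-0.92 to -0.07), and the slide 2 markers of the 9 members all lie right of 0.

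The members did not keep their direction from slide to slide. On slides 1, 3 and 4, the number of the 9 genes that were lower after progressive weaning was 6, 6 and 8, with median differences of -0.19, -0.27 and -0.30. On slide 2 none was lower, and the median was 0.45. The mean level of the erythroid markers differed by -0.26, 0.59, -2.16 and -0.06 on slides 1 to 4. That of the platelet markers differed by -0.55, 0.21, -0.51 and -0.44, and both lists were positive on slide 2 and negative on the others. The other lists had other signs. T cell markers differed by 0.06, 0.20, -0.02 and -0.17, and B cell markers by -0.02, -0.05, 0.40 and -0.22. Neutrophil markers differed by -0.22, -0.46, -0.43 and -0.23, and monocyte markers by 0.07, -0.33, -0.21 and 0.05. The part of these cells in the members' slide differences was not tested. Over all genes, 46.1, 51.3, 56.5 and 63.0% were lower on slides 1 to 4. A term for group by slide over all tested probes passed an adjusted p of 0.05 for 0 probes in limma, with 338 probes (1.28%) at an unadjusted p under 0.05. Of the 9 members, EOMES was the one below it (unadjusted p = 0.0212, limma adjusted p = 0.99999), with differences of 0.04, 0.54, 0.03 and -0.49 on slides 1 to 4. Without slide 2, 7 of the 9 genes were lower and their median difference was -0.25, against -0.02 over all genes. Leaving out slide 1, 3 or 4 instead left 5 of the 9 lower each time.

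Single mares stood apart over many of the genes. Brutal 12, on slide 3, was among the 8 highest of the 32 arrays for 8 of the 9 genes. It had the highest values of PRF1 (2.27), GZMB (7.07) and NKG7 (3.88), while its KLRD1 level was the second lowest of all. The array of brutal 12 also had the lowest 75th percentile of all (339.5), the value its signals were divided by. The part of this scaling in its levels was not tested. Brutal 5, on slide 2, was among the 8 lowest arrays for 8 of the 9 genes, with the lowest GZMA (0.46), KLRD1 (-1.37) and CRTAM (-2.40). Progressive 5, on slide 2, and brutal 14 were among the 8 highest for 7 genes, and progressive 1 and progressive 14 among the 8 lowest for 6. Marker lists of other cells also stood apart in these mares. The mean level of the erythroid markers was the highest of all in brutal 12 (2.66) and the lowest in brutal 5 (-1.38), and the mean of the T cell markers was the second lowest in brutal 5 (0.78) and at rank 30 of 32, counted from the lowest, in brutal 12 (1.49). Brutal 5 also stood at rank 30 for the neutrophil (2.66) and the monocyte markers (3.29), while progressive 1 had the lowest mean of the neutrophil markers (1.07). The part of these lists in the members' levels was not tested. Without brutal 5, 7 of the 9 genes were lower after progressive weaning with a median of -0.14, and without brutal 12, 6 were lower with a median of -0.05. The median over all genes was -0.02 without brutal 5 and -0.01 without brutal 12.

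**Figure D4:**
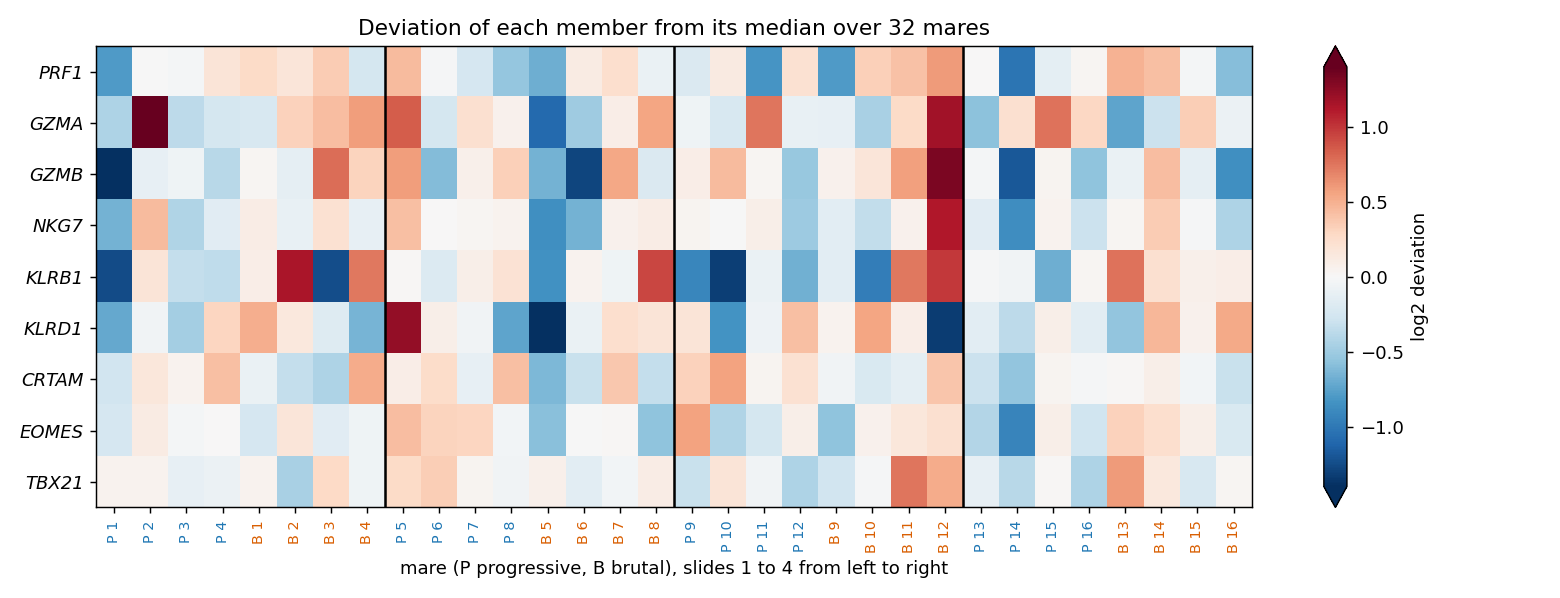
Deviation of each of the 9 genes (rows) from its own median over the 32 mares, as a log2 value (colour, red above and blue below), with mares as columns in slide order and progressive before brutal mares within a slide. Brutal 12 is red in all rows but KLRD1, and brutal 5 is blue in 8 rows.

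Against the rest of the array, the levels of some members differed widely between mares of a group. The SD within groups was at or above that of the median gene (0.30) for 8 of the 9 genes, TBX21 being the exception at the 44.8th percentile. GZMA, GZMB, KLRD1 and KLRB1 stood at the 90.7th, 90.9th, 90.9th and 91.9th percentile of SD among all genes tested. Between the lowest and the highest mare, KLRD1 differed 8.06-fold, GZMA 7.23-fold, GZMB 6.61-fold and KLRB1 5.51-fold, and CRTAM, with the smallest range, 2.29-fold. The SD of CRTAM, EOMES, NKG7 and PRF1 stood lower, at percentiles 51.6, 59.1, 72.7 and 75.6.

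Across mares, NKG7 varied together with GZMB and GZMA, and PRF1 with EOMES. Levels were centred within each group on each slide, and 36 pairs of members were tested by permutation within those cells. Of the 36 pairs, 33 had a positive Pearson r, with a median of 0.279, and 3 pairs passed an adjusted p of 0.05 by both Pearson and Spearman. The same counts over pairs of other genes are not given here, so they cannot be read as particular to the members. GZMB and NKG7 had r = 0.797 and rho = 0.812 (permutation p = 2.00e-05 each, adjusted p = 0.00072 each), positive on all 4 slides. PRF1 and EOMES had r = 0.666 (permutation p = 0.001, adjusted p = 0.0180) and rho = 0.610 (permutation p = 0.00214, adjusted p = 0.0385), also positive on all 4 slides. GZMA and NKG7 had r = 0.670 (permutation p = 0.00212, adjusted p = 0.0254) and rho = 0.570 (permutation p = 0.00643, adjusted p = 0.0463). This last relation was positive on slides 1 to 3 (r from 0.800 to 0.932) and absent on slide 4 (r = -0.03). Leaving out the 2 mares farthest from the median of the first gene gave r = 0.784, 0.537 and 0.525 for the 3 pairs.

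PRF1 and the granzymes act together in killing. The r of PRF1 was 0.516 with GZMB (rho = 0.536, adjusted p = 0.0560 for Pearson and 0.0463 for Spearman) and 0.10 with GZMA, and the difference between the 2 was not tested. NKG7 had the highest median r with the other 8 genes, 0.466, followed by GZMB with 0.402. KLRD1 had the lowest, 0.041, with r from -0.25 to 0.289, and KLRB1 had 0.158. EOMES and TBX21, which belong to the same family of T-box factors, had r = 0.146. All values share the array and its scaling, so these correlations are not independent of one another.

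**Figure D5:**
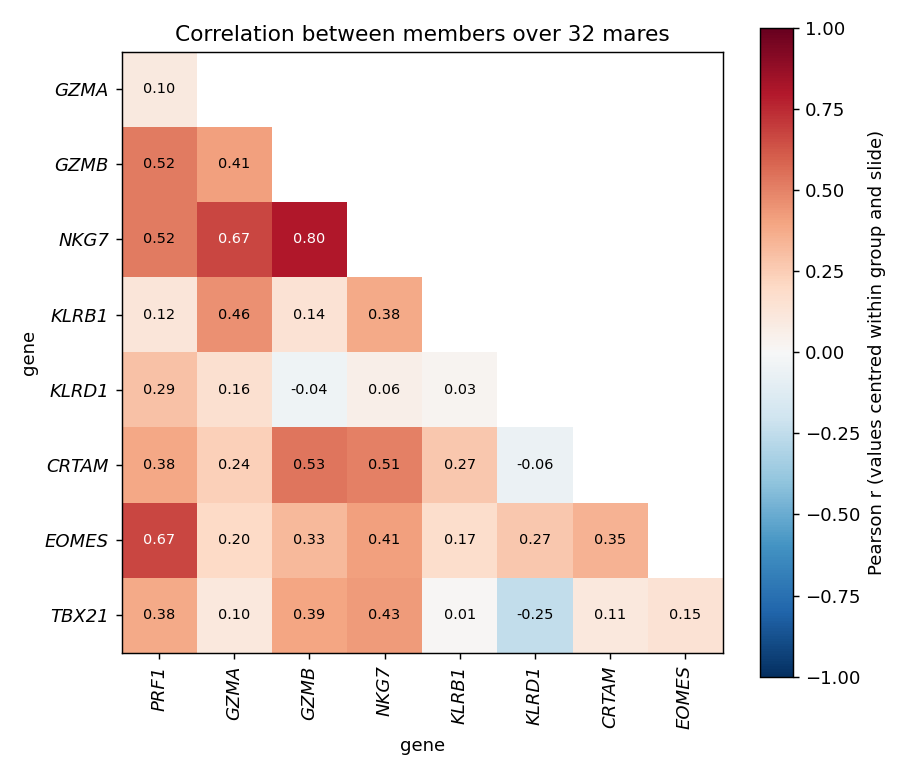
Pearson r between the levels of each pair of the 9 genes over 32 mares (colour and number), after centring within group and slide. The darkest cells are GZMB with NKG7 (0.80), GZMA with NKG7 (0.67) and PRF1 with EOMES (0.67), and the KLRD1 row and column are pale.

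Among all other tested genes with a symbol, those most like each member across mares were taken by the highest Pearson r over the 32 mares, 2 per member, as a description. For PRF1 they were CTSW, a cathepsin of cytotoxic lymphocytes (r = 0.771), and IGF2, a growth factor (r = 0.759). For GZMB they were the near copy LOC100033969 (r = 0.963) and LOC100053132, annotated as granzyme H-like (r = 0.887). NKG7 was most like CCL5, a chemokine (r = 0.883), and CST7, an inhibitor of lysosomal proteases (r = 0.861). GZMA was most like ARL3, a small GTPase (r = 0.871), and MRPL35, a mitochondrial ribosomal protein (r = 0.867). For KLRD1 they were LOC101910264, annotated as CD94-like (r = 0.742, with 1 mare's missing value set to the probe's mean), and KLRK1, the receptor NKG2D (r = 0.728).

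For CRTAM the most alike were CHRNE, an acetylcholine receptor subunit (r = 0.822), and CD27, a lymphocyte receptor of the tumour necrosis factor receptor family (r = 0.751). EOMES was most like GZMK, a further granzyme (r = 0.646), and SAMD3 (r = 0.625). TBX21 was most like ADORA2A, the adenosine A2a receptor (r = 0.735), and SLC35G1, a solute carrier (r = 0.724). For KLRB1 they were IMPDH1, an enzyme of guanine nucleotide synthesis (r = 0.738), and BBIP1, a subunit of the cilia-associated BBSome (r = 0.671). Rank correlation was lower for these last 2, at rho = 0.580 and 0.535. None of the 18 genes differed between the groups at an unadjusted p under 0.05.

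Other genes of the NK and cytotoxic programme were examined in 9 lists of 87 genes, of which 62 had a tested probe. None of the 62 passed an adjusted p of 0.05 and none had an unadjusted p under 0.05. In direction, 42 were lower and 20 higher after progressive weaning, with a median difference of -0.06, against 58.4% lower and a median of -0.02 over all 9686 genes. The counts of each list are read against the same share, and no list was tested. Among granule contents and proteases, 4 of 5 were lower, CTSW by -0.15 (SE 0.16) and SRGN, the granule proteoglycan serglycin, by -0.15 (SE 0.10). Of the granule release machinery, 7 of 9 were lower, with STXBP2 at -0.23 (SE 0.12) and its syntaxin partner STX11 at -0.17 (SE 0.11). STXBP2 was near the background, above it on 26 arrays.

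Of the NK receptors, 7 of 9 were lower, with NCR1, the activating receptor NKp46, at -0.25 (SE 0.19) and KLRG1, an inhibitory receptor, at -0.19 (SE 0.15). Receptor adaptors and kinases were split, 5 of 9 being higher. TYROBP, the signalling adaptor DAP12, averaged 5.50 ± 0.44 in progressive and 5.77 ± 0.34 in brutal mares (SD, n = 16 each), a difference of -0.27 (limma unadjusted p = 0.0532), and FCER1G differed by -0.20 (SE 0.15). Both adaptors are also expressed by myeloid cells. Of the cytokine receptors, 3 of 4 were lower, with IL18R1, a chain of the interleukin 18 receptor, at -0.32 (SE 0.16, limma unadjusted p = 0.0595) and IL21R at 0.15 (SE 0.14).

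Among effector cytokines, chemokines and death ligands, 6 of 8 were lower, with FASLG at -0.18 (SE 0.12) and CCL3 at -0.16 (SE 0.12). Of the further transcription factors, 5 of 8 were higher. TOX, which is needed for NK cell development in mice, differed by 0.30 (SE 0.20) but stood above background on only 22 arrays, and RUNX3 differed by -0.09 (SE 0.09). Trafficking receptors were lower in 6 of 8. The CD8 chains CD8A and CD8B differed by -0.03 (SE 0.16) and -0.02 (SE 0.09).

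Markers of other blood cells were compared between the groups by the same fit, and none passed the threshold. All 11 neutrophil markers were lower after progressive weaning, with a median difference of -0.31. At an unadjusted p under 0.05 there were 2 of the 11 neutrophil, 2 of 6 monocyte, 2 of 5 erythroid, 1 of 4 platelet, 0 of 13 T cell and 0 of 8 B cell markers, against 2.57% of all genes. The mean level of the neutrophil markers ran from 1.07 through 1.86 to 2.71 in progressive mares, against 1.22, 2.22 and 2.73 in brutal mares. Of the T cell markers, 8 of 13 were higher, with a median of 0.01, and their mean level ran from 0.72 through 1.23 to 1.60 in progressive mares, against 0.78, 1.33 and 1.49 in brutal mares. B cell markers were higher in 5 of 8, monocyte markers lower in 4 of 6, erythroid markers lower in 4 of 5 (median -0.47) and platelet markers lower in 4 of 4 (median -0.37). The part of these cells in the differences above was not tested.

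Between mares, the member levels were set against the mean level of 6 marker lists, 54 relations in all, and none passed an adjusted p of 0.05 by both Pearson and Spearman. The T cell, erythroid and platelet markers each had a positive r with 8 of the 9 genes, with medians of 0.299, 0.297 and 0.169. Of the erythroid relations the highest were with NKG7 (r = 0.552), GZMB (r = 0.50) and GZMA (r = 0.488), with adjusted permutation p of 0.0623, 0.107 and 0.0628. The highest T cell relation was with CRTAM, at r = 0.635 (adjusted permutation p = 0.0535) and rho = 0.643 (adjusted permutation p = 0.0254), and r = 0.591 without the 2 mares farthest from the markers' median. Neutrophil markers had r = 0.441 with PRF1 and -0.44 with GZMA, and a median over the 9 genes of -0.03. Monocyte markers had r = 0.461 with PRF1 and -0.47 with GZMA, and a median of -0.10. The highest B cell relation was with TBX21, at r = 0.521 (adjusted permutation p = 0.0623), and the B cell median was 0.03. KLRD1 had r from -0.38 with the B cell markers to 0.298 with the platelet markers.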

How the data were processed

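Per the file headers, the authors scanned each array and extracted intensity values per spot with Agilent Feature Extraction 10.10.1.1, subtracting background and spatial trends. A deposited table of log2 values, normalised with a tool the sources used here do not name, served as an alternative. After leaving out control and outlier spots, signals were scaled to the 75th percentile of their array, turned to log2 and averaged per probe. Testing required a probe to be well above background on 8 or more of the 16 arrays of a group. Limma 3.58.1 in R 4.3.3 (lmFit, eBayes, group only) was fitted over all 26368 tested probes, two-sided, with Benjamini-Hochberg adjustment. The fit was checked on simulated data in which probes varied independently of one another, without differences between slides. The brightest tested probe stands for a gene. Correlations used 100000 permutations within group and slide (Python 3.11.15, numpy 2.4.6, scipy 1.17.1), adjusted over 36 or 54 relations. The members and gene lists were chosen with earlier results of these data known. Named genes were all members, the 2 smallest p of each pathway list and the 2 most alike genes of each member, and others were named where a result turned on them. The genes this rule took from the list of trafficking receptors are not reported here. The number of arrays and the spread between mares limit the precision. Mares are numbered in accession order within a group.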

Additional observations from a re-analysis of the deposited data

How the results depend on the processing

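Across 19 alternative settings, of which the mean of a gene's probes gave values without a test, limma called no probe, and 0 of the 9 genes passed an adjusted p of 0.05 or 0.10. Of 158 member differences under these settings, 151 kept their direction. The exceptions were KLRD1 (-0.125 without slide 2, -0.0957 with array weights, -0.0811 without the array brutal 5 and -0.0512 without the array brutal 12) and EOMES (-0.141 without slide 2, -0.0320 with array weights and -0.00613 without brutal 5). The cause was not tested. The members' median difference lay between -0.25 (without slide 2) and -0.01 (without slide 4). KLRB1 lay between -0.66 and -0.36, with unadjusted p from 0.00992 to 0.119. At an unadjusted p under 0.05, array weights gave 3 members (KLRB1, PRF1 and CRTAM) and 1382 of all 26368 probes, against 726 in the reported fit. Leaving out slide 2 gave 2 members (KLRB1 and GZMB) and leaving out slide 3 gave 0. Leaving out slide 4 gave 1, which was CRTAM (0.280, limma unadjusted p = 0.0313) and not KLRB1 (-0.51, limma unadjusted p = 0.0694). The shares of all probes with a slide left out are not given here, so these counts cannot be read as particular to the members. GZMB was -0.51 without slide 2 and -0.10 without slide 1. With slide as a block 786 probes were at an unadjusted p under 0.05, and with trend and robust options 714. The settings without the arrays progressive 16, brutal 5 or brutal 12, and with array row as a block, were chosen after seeing the data. No paired analysis was possible because the labels give each mare an identity of its own and pair none across the kinds of weaning.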

Other observations

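Position on the slide was a further measured factor. Arrays stand in 2 rows on each slide, with 8 mares of each group in either row over the 4 slides. The rows also differed over the whole array: spots well above background made up 59.8 to 66.0% in row 1 and 53.0 to 59.6% in row 2. Of the 9 cytotoxic genes, 8 were higher in row 2, GZMA by 0.41 (limma unadjusted p = 0.0460, adjusted p = 0.810), and 0 of 26368 probes passed an adjusted p of 0.05 for the row. Within row 1 the GZMA difference, progressive minus brutal, was 0.55, and within row 2 it was -0.25. In row 1, 3 of the 9 genes were lower after progressive weaning, and in row 2, 6 were. The shares of all genes by row are not given here, so these counts cannot be read as particular to the cytotoxic genes. With the row also removed, GZMB and NKG7 had r = 0.791, PRF1 and EOMES r = 0.666, and GZMA and NKG7 r = 0.655 over the 32 mares.

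Apart from LOC100033969, 2 further probes with no symbol in the files resembled the GZMB probe, at 48 and 46 of 60 bases. The closer one followed the GZMB probe at r = 0.913 and differed by -0.24 (SE 0.17) between progressive and brutal mares, and the other had r = 0.611 and a difference of -0.31 (SE 0.29). Both lie on chromosome 1 of EquCab1.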
